A study of Mus musculus with 8 samples.

Results

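Skeletal muscle transcripts were followed in RNA from enzyme digests of mouse rib cages, a preparation labelled as primary chondrocytes. The set held 34 genes in 6 classes: 5 myogenic factors, 5 embryonic isoforms, 5 slow-fibre genes, 9 fast-fibre genes, 6 sarcomere genes shared by fibre types, and 4 genes of energy supply, calcium storage and the nerve-muscle junction. Each gene was represented by the brightest of the probe sets annotated to it alone, by the mean over all arrays. A probe set is the group of short probes with which the array reads 1 transcript, and its MAS5 signal is a brightness on a linear scale. All 34 genes were on the array, out of 18193 genes with a probe set of their own, and 27 were bright enough to be tested.

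The arrays held RNA of FVB embryos at E18.5 from 4 litters. Within each litter, embryos were grouped by genotype into a wild-type control pool and a pool transgenic for Hoxd4, a homeobox transcription factor, so that there were 4 control and 4 transgenic pools and 8 arrays. The labels put both groups through the same collagenase and trypsin digestion and the same cell strainer of 70 micrometres. The sources used here do not give the promoter that drives the transgene, the sites where it is expressed, or the number and sex of the embryos in each pool.

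Skeletal muscle arises from precursors that carry Pax7 and are committed by the basic helix-loop-helix factors Myf5 and Myod1, after which Myog drives their fusion into fibres. Fibres are packed with sarcomeres, in which myosin heavy and light chains pull on actin filaments under the control of the troponin complex. Before birth, rib muscle carries embryonic and perinatal isoforms of these proteins next to slow and fast ones, and the intercostal muscles lie directly against the rib cartilage.

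The medians of the 8 arrays lay between 101 and 115 signal units, their rank correlations between 0.932 and 0.943, and no 2 arrays were identical. Precision is limited by the number of arrays, and the median probe set had a 95% interval of ± 0.273 around its log2 fold change. Markers of the labelled cell type were bright, and 17 of 17 cartilage genes could be tested. Among them Cnmd, which encodes chondromodulin, ranged from 47716 to 55564 over the 8 arrays, Col9a1 from 42113 to 50405, and Col2a1, the main collagen of cartilage, from 36480 to 50824. The summed signal of the cartilage list was 455215 to 504356 in control and 482272 to 506494 in transgenic pools. The summed signal of the 34 muscle genes, which is set mostly by its brightest probe sets, was 41045 to 63750 in control and 38782 to 57994 in transgenic pools. Muscle transcripts were thus present in every digest labelled as chondrocytes, and these sums overlapped between the groups. Xist, which is transcribed from the inactive X chromosome, gave 5778, 9945, 13760 and 8098 in the control pools of litters 1 to 4 and 79.8, 3266, 47.2 and 8209 in the transgenic pools. For Eif2s3y, Uty and Kdm5d, which lie on the Y chromosome, the transgenic pool had the higher value in 4 of 4 litters. All 4 of these sex-linked genes had an unadjusted limma p under 0.05 between the groups, and 0 passed the adjusted threshold. The sex make-up of the pools and the genotype label therefore cannot be fully told apart.

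Promoters of 6 genes are shown because these genes stand for the patterns described further on: Acta1, Actc1, Mylpf and Ckm varied together over the pools, and Myog and the brightest probe set of Smyd1 had lower correlations with them. Each line gives the 250 bases before the annotated start, 5′ to 3′ on the strand of the gene, from RefSeq on GRCm38.p6. Capitals mark E-boxes (CANNTG, the site of the myogenic factors), CArG boxes (CCWWWWWWGG, the site of serum response factor) and MEF2 sites (YTAWWWWTAR). Here W is A or T, Y is C or T, and R is A or G. Only full matches are marked, so an unmarked window can still hold a near match. The Myog window holds ctatatttat, which misses the MEF2 pattern at its last base. Acta1 lies on the minus strand at chr8:123894776-123895025, Actc1 on the minus strand at chr2:114052876-114053125, and Mylpf on the plus strand at chr7:127211358-127211607. Ckm lies on the plus strand at chr7:19410844-19411093, Myog on the plus strand at chr1:134289754-134290003, and Smyd1 on the minus strand at chr6:71262282-71262531.
Acta1: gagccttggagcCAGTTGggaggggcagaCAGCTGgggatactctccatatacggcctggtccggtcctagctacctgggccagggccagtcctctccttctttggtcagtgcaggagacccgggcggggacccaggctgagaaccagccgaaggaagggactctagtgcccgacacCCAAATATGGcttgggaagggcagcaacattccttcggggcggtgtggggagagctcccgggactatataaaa
Actc1: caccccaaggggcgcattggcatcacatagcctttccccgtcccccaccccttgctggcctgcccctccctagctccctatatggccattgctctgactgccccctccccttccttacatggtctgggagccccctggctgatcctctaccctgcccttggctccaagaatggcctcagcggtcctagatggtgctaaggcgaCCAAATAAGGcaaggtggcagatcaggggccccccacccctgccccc
Mylpf: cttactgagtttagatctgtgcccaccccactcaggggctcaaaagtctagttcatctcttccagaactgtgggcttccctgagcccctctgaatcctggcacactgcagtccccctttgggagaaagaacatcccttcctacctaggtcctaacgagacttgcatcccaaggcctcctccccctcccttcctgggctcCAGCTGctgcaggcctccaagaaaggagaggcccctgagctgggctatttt
Ckm: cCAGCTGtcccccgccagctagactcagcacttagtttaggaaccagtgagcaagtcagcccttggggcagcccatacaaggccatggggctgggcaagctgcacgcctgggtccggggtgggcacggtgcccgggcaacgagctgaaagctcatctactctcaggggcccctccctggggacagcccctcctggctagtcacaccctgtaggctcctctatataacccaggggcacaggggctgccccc
Myog: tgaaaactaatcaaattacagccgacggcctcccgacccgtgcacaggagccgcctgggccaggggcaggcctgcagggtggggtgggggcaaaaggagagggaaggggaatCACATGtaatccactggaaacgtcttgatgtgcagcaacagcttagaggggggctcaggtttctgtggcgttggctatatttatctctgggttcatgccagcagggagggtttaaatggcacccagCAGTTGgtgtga
Smyd1: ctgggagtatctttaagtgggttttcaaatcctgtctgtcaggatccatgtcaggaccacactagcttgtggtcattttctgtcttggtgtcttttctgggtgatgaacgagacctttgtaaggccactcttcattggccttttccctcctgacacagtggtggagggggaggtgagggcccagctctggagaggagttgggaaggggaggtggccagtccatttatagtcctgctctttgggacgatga

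The 2 sarcomeric actin genes each held a CArG box, at 73 bases before the start in Acta1 and at 47 bases in Actc1. In the table of promoters, 28 of the 34 genes had an entry, with 30 windows in all; Tnnt3, Tnni2, Myod1, Myf6, Actn3 and Neb had none. Both strands were searched. A CArG box was found in 6.67% of the windows of the muscle genes and in 1.47% of all 32851 windows of that length. The E-box CAGCTG, a subset of CANNTG, was found in 40% of the windows of the muscle genes, against 13% of all windows. Its holders included Mylpf, Myl1, Ckm, Tnni1, Des, Chrna1 and Casq1. Any E-box was found in 76.7% against 66.2%, a MEF2 site (Myh1, Myh8 and Ttn) in 10% against 2.92%, and the MCAT element CATTCC in 20% against 12.6%. A match is a description of these letters. The windows of 7 genes held no E-box: Actc1, Myf5, Myh1, Myh2, Myl4, Pax7 and Smyd1.

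Among the myogenic factors, 4 of 5 were bright enough to be tested, by their mean signal over the 8 arrays. Without detection calls, their presence in each single pool was not tested. Myog, the factor of terminal muscle differentiation, gave 775, 817, 713 and 1040 in the control pools of litters 1 to 4 and 645, 816, 859 and 1048 in the transgenic pools. Both pools of litter 4 were the highest for Myog, and the groups overlapped. Myod1, a determination factor, gave 287, 282, 247 and 384 in control and 220, 300, 367 and 301 in transgenic pools, with the highest and the lowest values in different groups. Myf5, which acts earlier in the same lineage, gave 268, 394, 347 and 342 in control and 347, 394, 598 and 552 in transgenic pools. The transgenic pools of litters 3 and 4 stood above every control pool for Myf5, while litter 2 gave the same value in both groups. Pax7, the marker of muscle precursors and satellite cells, gave 316, 360, 419 and 471 in control and 251, 355, 379 and 321 in transgenic pools. The transgenic pool was the lower one for Pax7 in each litter, by 0.022 on the log2 scale in litter 2 and by 0.51 in litter 4. Myf6, a late factor of fibre maturation, was too dim to be tested, at 10.7 to 90.5 over the 8 arrays.

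The embryonic isoforms divided into a bright actin gene and dimmer myosin genes, whose levels cannot be set against each other across probe sets. Actc1, the cardiac alpha-actin that fetal skeletal muscle also makes, gave 4414, 6969, 5548 and 5918 in control and 4458, 5585, 6026 and 7140 in transgenic pools. Both pools of litter 1 were the lowest for Actc1. Myh3, the embryonic myosin heavy chain, gave 147, 228, 289 and 185 in control and 202, 264, 286 and 279 in transgenic pools. The perinatal heavy chain Myh8 ranged from 77.8 to 205, with its lowest value in the transgenic pool of litter 1 and its other 7 values between 138 and 205. Myl4, the embryonic and atrial light chain, ranged from 412 in the control pool of litter 3 to 846 in the transgenic pool of litter 4. Chrng, the fetal subunit of the acetylcholine receptor, was too dim, at 7.83 to 58.6.

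Of the slow-fibre genes, 4 of 5 were tested, and each was lowest in a litter 1 pool. Tnnc1, the troponin C of slow and cardiac muscle, gave 453, 783, 596 and 605 in control and 413, 595, 887 and 726 in transgenic pools. Tnni1, slow troponin I, gave 265, 508, 318 and 368 in control and 243, 322, 540 and 548 in transgenic pools. The control pool was the higher one for both genes in litters 1 and 2, and the transgenic pool in litters 3 and 4. Tnnt1, slow troponin T, ranged from 465 to 837, and Mybpc1, the slow myosin-binding protein C, from 575 to 933. Myh7, the slow heavy chain, was too dim, at 20.9 to 114.

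Among the fast-fibre genes, Myl1, Tnnc2 and Tnni2 followed Mylpf closely from pool to pool. Mylpf, the regulatory light chain of fast fibres, gave 3905, 7014, 4953 and 4714 in control and 3634, 5009, 5866 and 6309 in transgenic pools. Myl1, the alkali light chain, gave 5143, 11265, 7265 and 6392 in control and 5318, 7909, 9004 and 9098 in transgenic pools. Both genes had their lowest values in litter 1 and their highest in the control pool of litter 2. Tnnc2, fast troponin C, ranged from 2661 to 5629 and Tnni2, fast troponin I, from 1777 to 3130, each with its lowest value in a litter 1 pool and its highest in the control pool of litter 2. Tnnt3, fast troponin T, ran another way, with 9179, 7153, 7382 and 5794 in control and 7628, 7342, 6024 and 7135 in transgenic pools. Its 2 highest values were those of litter 1, where the other tested fast genes were lowest. The adult heavy chains Myh1 (59.1 to 129) and Myh2 (2.97 to 20.6), the fast alpha-actinin Actn3 (8.42 to 175) and the fast myosin-binding protein Mybpc2 (4.39 to 63.1) were too dim to be tested.

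All 6 sarcomere genes shared by fibre types were tested. Acta1, the alpha-actin of adult skeletal muscle, gave 6707, 12525, 7747 and 7296 in control and 6738, 9962, 9950 and 10324 in transgenic pools. The transgenic pools of litters 2, 3 and 4 lay close together for Acta1, and that of litter 1 far below them. Neb, the ruler of the thin filament, gave 88.3, 154, 97.6 and 135 in control and 94.2, 137, 189 and 228 in transgenic pools. Des, the intermediate filament of muscle, gave 166, 276, 173 and 162 in control and 128, 256, 199 and 234 in transgenic pools. The highest Des value was thus in the control pool of litter 2 and the lowest in the transgenic pool of litter 1. Actn2, an alpha-actinin of the Z-disc, varied least of the tested members, by 1.40-fold between its lowest and highest array. Ttn, the giant spring of the sarcomere, ranged from 129 in the transgenic pool of litter 2 to 444 in that of litter 4. A second Ttn probe set, of nearly the same mean signal, gave 278 in the transgenic pool of litter 2 and ranged from 187 to 478, so the low value there belongs to 1 probe set. Smyd1, a methyltransferase needed for myosin assembly, ranged from 85.9 to 183, and both ends of that range were control pools.

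The genes outside the sarcomere were those of energy, calcium and the synapse. Ckm, the creatine kinase of muscle, gave 1101, 2136, 1151 and 1281 in control and 1147, 1928, 2168 and 2072 in transgenic pools. These values formed a low set, made of both litter 1 pools and the control pools of litters 3 and 4, and a high set at 1928 and above. Pygm, the glycogen phosphorylase of muscle, gave 80.5, 178, 85.4 and 92.2 in control and 83.2, 140, 135 and 174 in transgenic pools, with the same 4 pools low. Casq1, the calcium store of fast fibres, was lowest in the transgenic pool of litter 1 at 79.9 and lay between 129 and 207 in the other 7. Chrna1, the alpha subunit of the acetylcholine receptor, ranged from 77.7 to 182, with its lowest value in the control pool of litter 2, where Acta1 and Mylpf were highest.

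**Figure D1:**
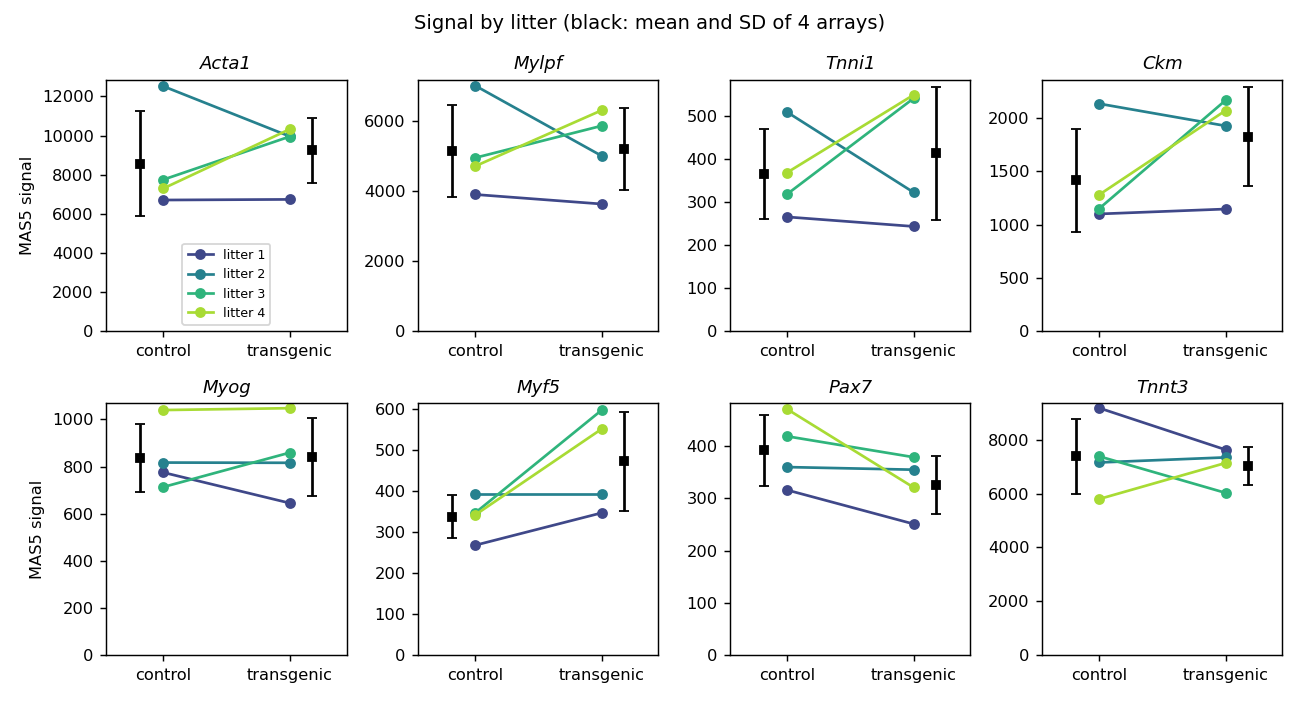
MAS5 signal (linear axis from 0) of 8 muscle genes in the control and transgenic pools; coloured lines join the 2 pools of a litter, and black squares with bars are the mean and SD of 4 arrays. The lines of litters 3 and 4 run upward for Acta1, Mylpf, Tnni1 and Ckm, those of litter 2 run downward for these genes, Pax7 runs downward or level in each litter, and Tnnt3 is highest in litter 1.

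Over the tested members, litter 1 stood low in both groups. The control pool of litter 1 was the lowest of 8 for 10 of 27 members and the transgenic pool of litter 1 for 12, where these arrays were lowest for 17.1% and 13.1% of all tested probe sets. Both litter 1 pools were the lowest 2 of 8 for 13 of 27 members, against 8.84% of all tested probe sets. These 13 were Pax7, Actc1, Tnnc1, Tnnt1, Tnni1, Myl1, Mylpf, Tnnc2, Tnni2, Acta1, Neb, Ckm and Pygm. In bulk RNA, fewer muscle cells and less muscle RNA per cell cannot be told apart. The 2 litter 1 arrays also had the lowest medians of all probe sets, 103 and 101 against 108 to 115. After quantile normalization, which gives all arrays the same distribution, 10 of 27 members still had both litter 1 pools lowest, all 10 among those 13, against 6.70% of probe sets. The highest value lay in the control pool of litter 2 for 8 members and in the transgenic pools of litters 3 and 4 for 6 each.

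**Figure D2:**
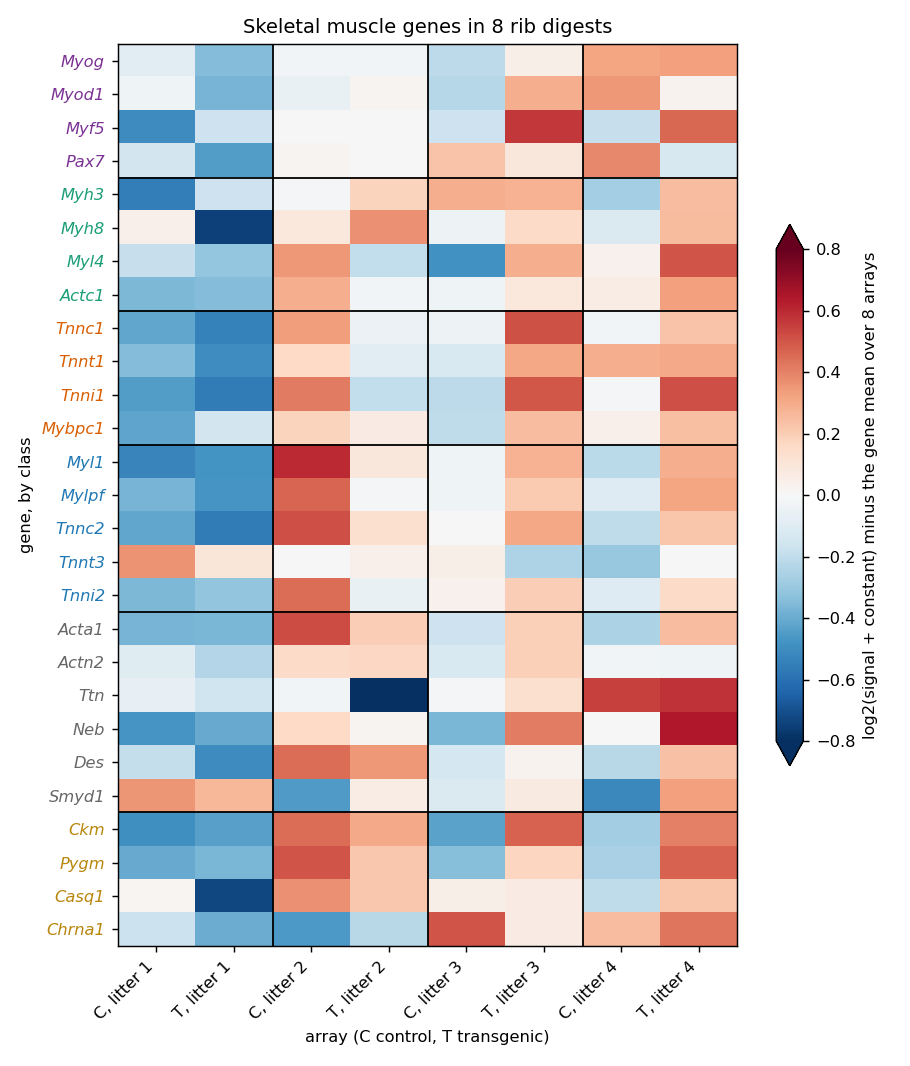
Colours show log2(signal + constant) of the 27 tested members minus the mean of each gene over the 8 arrays, with genes in rows by class and pools in columns by litter (C control, T transgenic). Most rows are blue in both litter 1 pools, with Tnnt3 and Smyd1 red there, and most sarcomere rows are red in the control pool of litter 2 and in the transgenic pools of litters 3 and 4.

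Co-variation was first computed against Acta1. The Acta1 values fell into 4 low and 4 high arrays, with a gap of 40.1% of their range on the log2 scale, so a pooled correlation with it rests on that split. For this reason Mylpf, with a largest gap of 28.6%, was taken as the anchor after the data had been seen. The gap of Mylpf set the 2 litter 1 arrays below the rest, so correlations with Mylpf also rest in part on litter 1. Of the other 26 tested members, 13 had a Pearson correlation of 0.8 or more with Mylpf over the 8 arrays, against 1.97% of all tested probe sets, and the median was 0.80 against 0.048. Exact permutation p-values adjusted over the 26 relations were under 0.05 for 14 members by Pearson's r and for 13 by Spearman's rho. Pools of 1 litter are not fully independent, so these p-values are too small. With Acta1 as the anchor, 12 of 26 members had a correlation of 0.8 or more, and the median was 0.76.

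By class, a correlation of 0.8 or more was reached by 4 of 4 slow genes, 3 of the other 4 fast genes, 3 of 6 shared genes, 2 of 4 energy, calcium and junction genes, 1 of 4 embryonic genes and 0 of 4 myogenic factors; differences between classes were not tested. Myl1 had r = 0.98 and rho = 0.98 (exact permutation p = 1.24e-04 and 3.97e-04, adjusted 0.00172 and 0.00516). Tnnc2 had r = 0.97 and rho = 0.98, and Tnni2 had r = 0.97 and rho = 0.93. Actc1, of the embryonic class, had r = 0.95 and rho = 0.88 (exact permutation p = 0.00151 and 0.00724, adjusted 0.00742 and 0.0188). Among the slow genes, r was 0.93 for Tnni1 and for Tnnc1, and 0.81 for Tnnt1 and for Mybpc1. Acta1 had r = 0.93, Pygm 0.89, Ckm 0.86, Des 0.84 and Neb 0.82. The correlation of Casq1 was 0.79, of Myl4 0.77, of Actn2 0.72, of Myf5 0.69, of Myh8 0.65 and of Myh3 0.62.

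Other members had low or negative values. Tnnt3 had r = -0.43 (exact permutation p = 0.297, adjusted 0.367) and rho = -0.52, although its partners in the fast troponin complex, Tnnc2 and Tnni2, both had 0.97. Tnnt3 was read by 1 probe set, of a kind whose probes can match several transcripts, so another reading could not be compared. Chrna1 had 0.18. For Smyd1 and Ttn the value depended on the probe set: the brightest Smyd1 probe set had -0.39 and the next 0.33, and the 3 tested Ttn probe sets had 0.23, 0.70 and 0.58. The Smyd1 probe sets too dim to be tested ran from -0.56 to 0.89. Among the 4 tested myogenic factors, r was 0.37 for Pax7, 0.37 for Myod1 and 0.52 for Myog. Their adjusted exact permutation p-values were 0.405, 0.405 and 0.240. Myf5, the other tested factor, was higher, with r = 0.69 and rho = 0.83 (adjusted exact permutation p = 0.0808 and 0.0308). No test of the difference between these correlations was made.

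Without the 2 arrays farthest from the median of Mylpf, the control pool of litter 2 and the transgenic pool of litter 1, 13 members had r of 0.8 or more, and the median was 0.80. Of the first 13, 11 were among them. The control pool of litter 1 was kept in this check. Des moved from 0.84 to 0.60 and Tnnt1 from 0.81 to 0.78, while Myf5 moved from 0.69 to 0.96 and Myh3 from 0.62 to 0.83. Casq1 moved from 0.79 to 0.50. With group means subtracted the median was 0.82, and with litter means subtracted it was 0.70. Each value within litters rests on only 4 differences, 1 for each litter, and these still hold the difference between the groups. Within litters, Myl1 had r = 0.97, Tnnc2 0.98, Actc1 0.98 and Tnni1 0.94. Lower values than over all arrays were found for Mybpc1 (0.55), Actn2 (0.34), Myh8 (0.22), Myh3 (0.18) and Pax7 (-0.49). The 2 negative correlations did not remain within litters, where Tnnt3 had 0.18 and Smyd1 0.23, and Ttn had 0.77. After quantile normalization, 10 of 26 members had r of 0.8 or more.

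**Figure D3:**
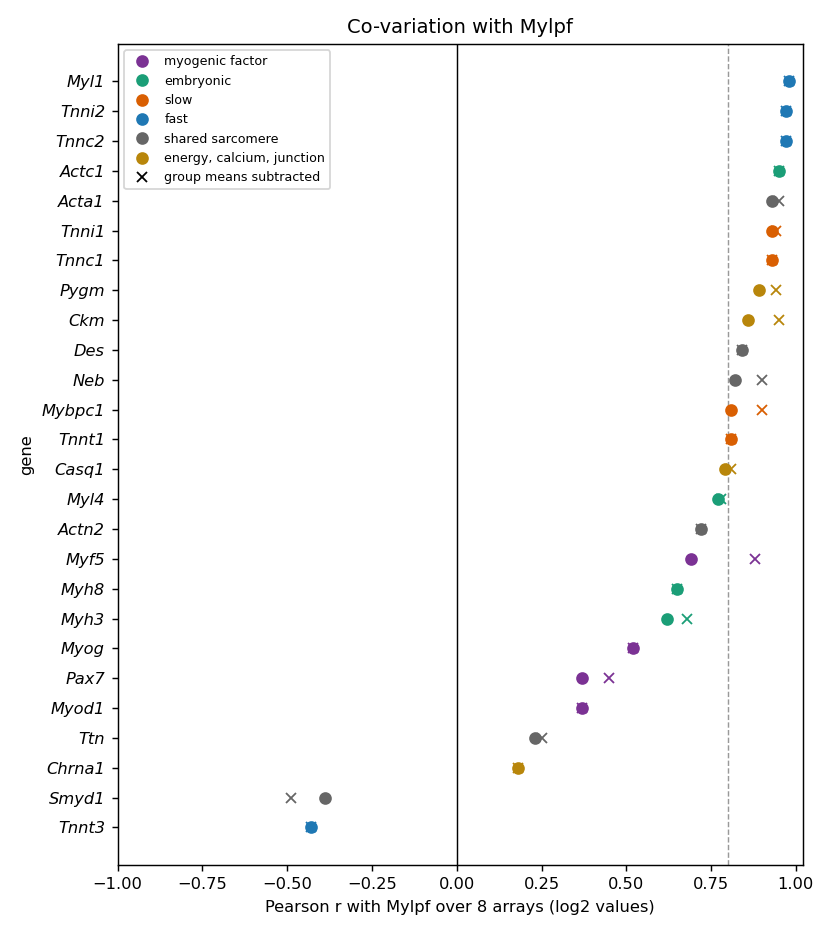
Pearson correlation of each tested member with Mylpf over the 8 arrays (dots, coloured by class) and after subtraction of the group means (crosses); the dashed line is at 0.8. The fast genes Myl1, Tnnc2 and Tnni2 lie at 0.97 and above and Actc1 at 0.95. The brightest probe set of Smyd1 at -0.39 and the fast troponin gene Tnnt3 at -0.43 lie below 0.

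The comparison of transgenic with control pools asks whether muscle transcripts differ in digests from embryos transgenic for Hoxd4. None of the 27 tested members passed an adjusted p under 0.05 in limma, where 0% of all 22518 tested probe sets passed. At an unadjusted p under 0.05, 1 member passed, against 3.29% of probe sets. The log2 fold change was above 0 for 20 members and below 0 for 7, against 51.2% above 0 for all tested probe sets. The median was 0.053 over the members and 0.0029 over all tested probe sets. Each of the 27 intervals lay within a 2-fold change in either direction. Over all 35 tested probe sets of the members, 34 did, and the exception was a second probe set of Smyd1. No member had groups that did not overlap, against 1.18% of probe sets with all transgenic pools higher and 1.09% with all lower.

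By class, 2 of 4 tested myogenic factors, 4 of 4 embryonic, 4 of 4 slow, 3 of 5 fast and 5 of 6 shared genes had a fold change above 0, as did 2 of 4 of the last class. Smyd1, whose probe sets disagree, counts among them, and without it 4 of 5 shared genes and 19 of 26 members were above 0. The class medians on the log2 scale ran from -0.0059 for the myogenic factors to 0.10 for the slow genes, and 0 members of any class passed. Myf5 had the largest fold change, 0.43 on the log2 scale (95% interval 0.068 to 0.79; adjusted p = 0.9997, unadjusted 0.0233, in limma). Its means were 338 ± 52.0 in control and 473 ± 121 in transgenic pools (SD, n = 4). It was the member with the unadjusted p under 0.05, and it was higher in the transgenic pool of 3 of 4 litters. Ckm, at 1417 ± 485 and 1828 ± 465, had 0.37 (-0.081 to 0.82, adjusted p 0.9997), and Neb, at 119 ± 31.1 and 162 ± 58.5, had 0.34 (-0.17 to 0.85). Intervals of both genes took in 0. With the litter as a fixed block that of Ckm did not (0.063 to 0.68, unadjusted limma p of 0.0223, adjusted 0.843). Then 2 of 27 members, Myf5 and Ckm, were under an unadjusted 0.05. Of all 22518 tested probe sets, 1248 were under it with this block, against 740 without a block. With the litter as a random block the interval of Ckm took in 0 again (-0.017 to 0.76). Acta1 was at 8569 ± 2672 and 9243 ± 1679, with a log2 fold change of 0.13 (-0.24 to 0.51). The fast genes ran from -0.055 to 0.089: Myl1 had 0.089 (-0.35 to 0.53), Mylpf 0.019 (-0.35 to 0.39), Tnnc2 0.053 (-0.37 to 0.47), Tnni2 -0.013 (-0.34 to 0.31) and Tnnt3 -0.055 (-0.30 to 0.19). Myog, at 836 ± 143 and 842 ± 166, had 0.0039 (-0.30 to 0.31).

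**Figure D4:**
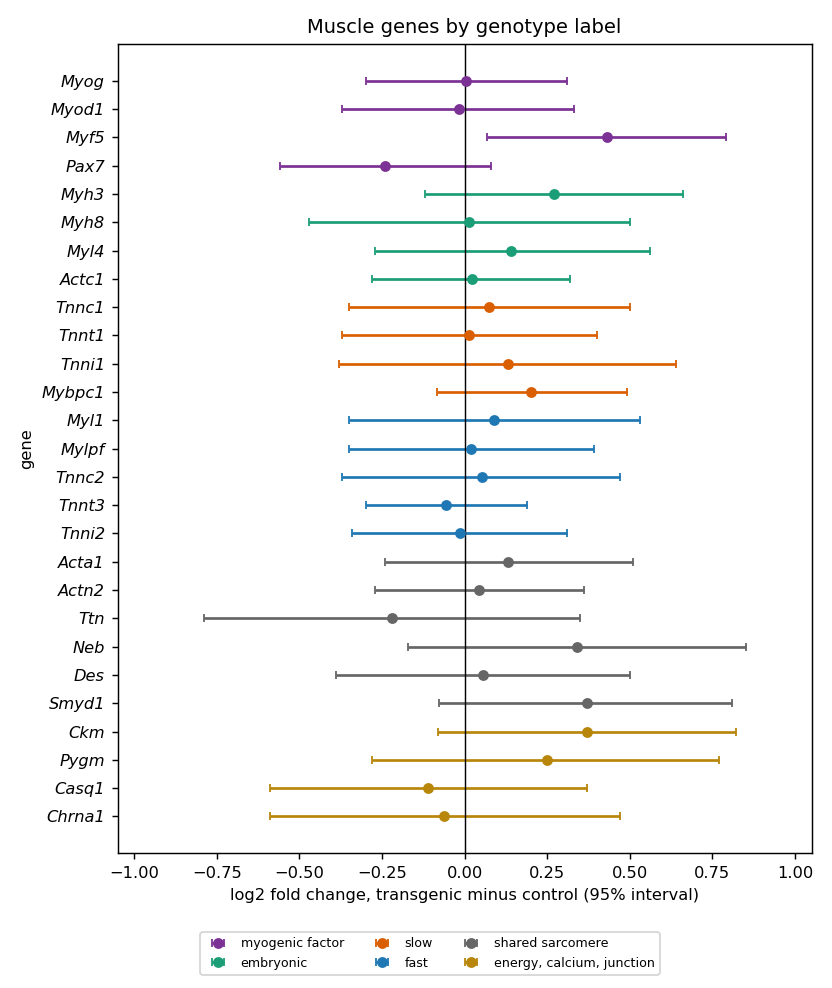
Log2 fold change of the 27 tested members (dots, coloured by class) with the 95% interval of the limma fit; values above 0 are higher in transgenic pools. Each interval except that of Myf5 (0.068 to 0.79) crosses 0, and all 27 stay between -1 and 1.

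Pax7 was the one member that ran the same way in 4 of 4 litters. Its mean was 392 ± 67.8 in control and 326 ± 55.7 in transgenic pools. The log2 fold change was -0.24 (-0.56 to 0.08; adjusted p = 0.9997 in limma). A second, dimmer Pax7 probe set was also lower in each litter, with a log2 fold change of -0.39 and an unadjusted p of 0.0874 in limma. Of all tested probe sets, 6.60% were lower in the transgenic pool of 4 of 4 litters and 6.83% higher, and the 1 lower and 0 higher of 27 members were no larger shares than these.

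The litters disagreed on the direction. The transgenic pool was the higher one for 10 of 27 members in litter 1 (50.5% of all tested probe sets), for 7 in litter 2 (51.1%), for 23 in litter 3 (49.1%) and for 24 in litter 4 (50.4%). The median differences over the members were -0.11, -0.15, 0.31 and 0.42 on the log2 scale. Myf5 differed by 0.34, 0.73 and 0.64 in litters 1, 3 and 4. Tnni1 differed by -0.11 and -0.61 in litters 1 and 2 and by 0.71 and 0.54 in litters 3 and 4. Since the members vary together, a count of members in a litter is close to a reading of a single quantity in that pair of pools. Without the transgenic pool of litter 4 the count of members above 0 was 11 of 27, without that of litter 3 it was 12, and without both pools of litter 3 it was 12; in the 3 cases 0 members passed. Leaving out both pools of litter 1 gave 23 members above 0 and a median of 0.12, and leaving out the transgenic pool of litter 1 alone gave 24 and 0.25. With Xist as a covariate, 23 of 27 were above 0 with a median of 0.25, and 0 passed (lowest adjusted p 0.984 in limma); Myf5 was then among those with an unadjusted p above 0.05. Xist itself differed between the groups, so this covariate overlaps with the genotype label, and the fit cannot separate sex from genotype.

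Isoform pairs were compared within arrays, as the difference of their log2 values, which asks about unequal change and not about levels. Of 7 pairs, 0 passed an adjusted p under 0.05 in an exact two-sided permutation test over 70 label assignments, whose smallest possible p is 0.0286. Adjustment over 7 pairs then needs at least 5 of them at that smallest p, so a change in fewer pairs could not have passed. The lowest unadjusted exact permutation p was 0.343. The slow minus the fast troponin I, Tnni1 minus Tnni2, changed by 0.14 between the groups (exact permutation p = 0.400), from -2.59 ± 0.14 to -2.44 ± 0.31 (SD, n = 4). For slow minus fast troponin C the change was 0.022, with a range of 0.38 over the 8 arrays, and for slow minus fast troponin T it was 0.068, with a range of 1.30. Embryonic minus perinatal heavy chain, Myh3 minus Myh8, changed by 0.25, and Actc1 minus Acta1 by -0.11. The remaining pairs, Mybpc1 minus Mybpc2 (0.35) and Myh7 minus Myh1 (0.19), each include probe sets too dim to be tested.

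Some genes were read by several probe sets, and these did not always tell the same story. The 34 genes had 57 probe sets, 35 of them bright enough to be tested, and 11 genes had more than 1. The brightest Smyd1 probe set is of a kind whose probes can match other transcripts, and it had a log2 fold change of 0.37. The next brightest gave 130, 165, 137 and 264 in control and 32.7, 92.9, 53.8 and 142 in transgenic pools, lower in each litter, with -0.94 (95% interval -1.57 to -0.30) and an unadjusted limma p of 0.00718. The correlation of the 2 over the 8 arrays was -0.61. The other Smyd1 probe sets, too dim to be tested, had log2 fold changes of -0.26, -0.68, -0.14 and -0.19. Only the brightest one was thus above 0. Since the tested probe sets disagree, no direction can be given for Smyd1. For Mybpc1 the 3 tested probe sets had 0.20, -0.076 and -0.0079, and for Ttn -0.22, 0.045 and 0.16. Agreement was close for Tnni2, whose second tested probe set followed the first with r = 0.94 and had -0.07. The second probe sets of Myod1, Ckm and Des were too dim to be tested.

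A list of other skeletal muscle genes outside the 34 was read in the same way. Of its 80 genes, 71 were on the array and 46 were tested: 26 had a fold change above 0 and 20 below, 0 passed, 0 had an unadjusted limma p under 0.05, and their median was 0.014. With Mylpf, 14 of 46 had r of 0.8 or more, against the 1.97% of all probe sets given above. Chosen for these values after they were seen, Myot, a Z-disc protein, had r = 0.98, Sln, an inhibitor of the calcium pump, 0.97, Itgb1bp2, a muscle chaperone, 0.96, Pgam2, the phosphoglycerate mutase of muscle, 0.95, and Eno3, the muscle enolase, 0.94. Named for their roles, Ryr1, the calcium release channel, had 0.79 and Tcap, which caps titin, 0.78. Tropomyosin genes were looser, with 0.78 for Tpm1, 0.52 for Tpm2 and 0.28 for Tpm3, genes that cells other than muscle also express. Myh4, the fastest adult heavy chain, was too dim, at 6.07 to 57.3.

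Markers of neighbouring tissues were read in the same arrays. Of 12 heart genes 11 were too dim to be tested, and the exception was Mybpc3, at 149 ± 37.3 in control and 111 ± 18.4 in transgenic pools (SD, n = 4). The brightest of the others were the cardiac transcription factors Tbx5, at 21.7 to 163, and Nkx2-5, at 11.5 to 120, and the calcium pump regulator Pln, at 6.04 to 84.3. The heart-chamber genes Myh6 and Nppa, added here for their role, were at 5.43 to 39.2 and 9.75 to 56.8. The summed heart list ran from 474 to 718 in control and from 570 to 726 in transgenic pools. Several genes that heart and skeletal muscle share, such as Actc1, Tnnc1 and Myl4, were placed with the members or the other skeletal muscle genes. The number of heart genes tested therefore depends on how the lists were drawn. Of the tendon and fascia genes, 9 of 10 were tested and 2 had r of 0.8 or more with Mylpf: Tnc, which encodes tenascin C, with 0.92 and Tnmd, which encodes tenomodulin, with 0.81. Tnmd gave 7747, 12471, 11650 and 9155 in control and 7816, 11541, 12110 and 9934 in transgenic pools, lowest in litter 1 as many of the muscle genes were. The other bright genes of this list had lower values, 0.28 for Fmod, which encodes fibromodulin, and 0.59 for Thbs4. The median over the 9 tested genes was 0.59. The summed tendon list, set mostly by Fmod (46310 to 52547 over the 8 arrays), ran from 66165 to 73973 in control and from 64938 to 74030 in transgenic pools. Of the 17 cartilage genes 0 reached r of 0.8, and their median was -0.12. Smooth muscle had 7 of 10 genes tested and 1 with r of 0.8 or more (Synm, 0.82), while Acta2 had -0.034 and Tagln -0.19. Nerve and Schwann (6 tested), endothelium (10), brown fat (3) and erythroid genes (3) had 0 at or above 0.8. Their brightest genes were Pmp22 with 0.52, Eng with 0.26, Fabp4 with 0.79 and Hbb-b2 with 0.38. Low values in litter 1 were not confined to muscle. The control and transgenic pools of litter 1 had the lowest sums for brown fat (3715 and 2543, mostly Fabp4) and for erythroid genes (6543 and 5449). This was not so for the endothelium, nerve, smooth muscle, heart, tendon and cartilage sums. None of the genes in these 8 lists passed the adjusted threshold between the groups in limma, and Cdh5, an endothelial cadherin, was the one with an unadjusted p under 0.05 (0.00176). The part of these other tissues in the variation of the muscle genes was not tested.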

How the data were processed

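The authors deposited 1 intensity for each probe set and array, unlogged, with 1 array for each pool of primary cells; the submitters' processing notes name MAS5. Its version and detection calls are not stated in the sources used here. The 2% trimmed mean of each array was 500, which shows global scaling, and MAS5 subtracts mismatch signal, which makes dim probe sets noisy.

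Of 45101 probe sets, 64 controls were left out. The rest were taken as log2(signal + 31.6), where the constant is the median of the 25th percentiles of the 8 arrays and shrinks fold changes of dim genes. The 22518 probe sets with a mean signal above the median, 105.9, were tested for transgenic minus control with lmFit and eBayes (trend) in limma 3.58.1 (R 4.3.3) without a block, with Benjamini-Hochberg adjustment. Correlations and isoform pairs were tested with exact permutations (scipy 1.17.1). The fit and the permutation tests were first tested on simulated data. Gene names came from GEO's annotation of the array, which can be old, and promoters came from a RefSeq table of GRCm38.p6.

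Replicate numbers are litter numbers, as the design text of the series has it, and so pair the pools. Deviations from the group means of same-litter arrays correlated at 0.277, 0.169, 0.0407 and 0.138, with a mean of 0.156 against -0.052 for different litters. Nothing says how many embryos a pool held.

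The text names all 34 members, other skeletal muscle genes with an unadjusted p under 0.05 (none), up to 4 of the brightest genes of each other list, and further genes chosen after their values were seen, for those values or for their role: Myot, Sln, Itgb1bp2, Pgam2, Eno3, Ryr1, Tcap, Tpm1, Tpm2, Tpm3, Myh4, Myh6, Nppa, Synm and Cdh5. The members and lists were chosen with earlier results of these data known, so none of the counts is independent evidence. Alternatives were the constant, the filter, quantile normalization, the choice of probe sets, the litter as a block (fixed or random), Xist as a covariate, another anchor gene, and leaving out arrays or litters.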

Additional observations from a re-analysis of the deposited data

Results flagged for a closer look

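In 4 of 68 groups of 4 arrays (34 genes, each in control and transgenic pools), 1 array stood far from the other 3, where chance gives about 1 in 20 groups. The measure is the gap to the nearest array as a share of the range of the group. For Acta1 the transgenic pool of litter 1, at 6738, had a share of 0.896, and for Ttn the control pool of litter 4, at 435, had 0.930. The control pool of litter 2 stood high for Des, at 276 with a share of 0.900, and for Pygm, at 178 with 0.880.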

How the results depend on the processing

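No member passed the adjusted threshold under any alternative, and over the single members 481 values kept their direction and 81 changed it, most of them from leaving out an array or a litter. With the replicate block, the litter as a fixed term, 20 members were above 0, the median was 0.053 and the lowest adjusted p was 0.830 in limma, for Myf5; with the random block it was 0.865. Over the alternatives the adjusted p of the member with the lowest one ran from 0.830 to 1.0000. The mean of all probe sets turned Myod1 to 0.21, Des to -0.0053 and Smyd1 to -0.31; without multi-transcript probe sets Smyd1 was at -0.94; the Xist covariate turned Tnni2 to 0.085, Casq1 to 0.21 and Chrna1 to 0.17. Leaving out arrays or litters moved the count of members above 0 between 11 and 24. The log2 fold changes that changed sign on the way ran from -0.10 to 0.12 for Myog, -0.19 to 0.11 for Myod1, -0.11 to 0.28 for Myh8, -0.07 to 0.37 for Myl4, -0.096 to 0.14 for Actc1, -0.083 to 0.27 for Tnnc1, -0.13 to 0.18 for Tnnt1, -0.061 to 0.38 for Tnni1, -0.072 to 0.30 for Myl1, -0.11 to 0.19 for Mylpf, -0.076 to 0.25 for Tnnc2, -0.17 to 0.056 for Tnnt3, -0.13 to 0.15 for Tnni2, -0.046 to 0.13 for Actn2, -0.45 to 0.072 for Ttn, -0.078 to 0.23 for Des, -0.29 to 0.11 for Casq1 and -0.22 to 0.097 for Chrna1. For the isoform pairs 85 values kept their direction and 6 changed it: Tnnt1 minus Tnnt3 ran from -0.16 to 0.28, Tnnc1 minus Tnnc2 from -0.039 to 0.086 and Myh7 minus Myh1 from -0.0099 to 0.52. The cause of these changes was not tested beyond the smaller number of arrays. The median correlation with Acta1, 0.76, was 0.79 with Ckm and 0.80 with Mylpf as the anchor. Ckm has the same limit as Acta1. Its values fell into 4 low and 4 high arrays, with a gap of 60.3% of their range on the log2 scale. With Acta1 as the anchor, the count of adjusted exact permutation p-values under 0.05, 11, was 6 without the 2 farthest arrays, where fewer arrays leave larger p-values. Leaving out each array gave counts of 7 to 13 and medians of 0.73 to 0.81. The Mylpf anchor, leaving out single arrays for the correlations, and quantile normalization of the litter 1 count were chosen after seeing the data. Dim probe sets, among them those of the adult heavy chains, limit what can be said of fibre types.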
